A study of Mus musculus with 6 samples.

Results

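The genes described here are 7 chemokine genes that act on monocytes and other myeloid cells, Ccl2, Ccl7, Ccl8, Ccl12, Ccl6, Ccl9 and Pf4, out of 32287 features in the gene matrix. They were named as a list of monocyte-attracting CC chemokines together with Pf4, and each was read in marker-gated cell types and by immunization. The cells were CD11b hi TOM+ cells sorted from inguinal lymph nodes of Cd169Cre/+.Tdtomato fl/fl mice, 2 of them unimmunized and 2 taken 9 days after immunization with hen egg lysozyme (HEL). In these mice Cre is made from the Siglec1 locus, which encodes CD169, and switches on a floxed tdTomato reporter, so TOM marks cells that have expressed Siglec1 at some time and their progeny, also after CD169 itself is lost. All mice were on a C57BL/6J background and, per the methods, over 6 weeks old, and unimmunized and immunized mice carried the same alleles. Each mouse had 1 hashtag antibody, and the pooled cells were split over 2 droplet captures for CITE-seq, which counts mRNA molecules (as unique molecular identifiers, UMIs) and DNA-tagged surface antibodies on the same cell.

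Chemokines are small secreted proteins that bind G protein-coupled receptors and heparan sulphate, and cells move up their gradients. CCL2, CCL7 and CCL12 bind CCR2, the receptor through which Ly6C-high monocytes leave the bone marrow and enter tissue. CCL8 of the mouse acts mainly through CCR8, and CCL6 and CCL9 act mainly through CCR1. PF4, or CXCL4, is a CXC chemokine best known from the alpha granules of platelets and is also made by some tissue macrophages. In lymph nodes, CD169+ macrophages line the subcapsular and medullary sinuses, while tingible body macrophages (TBMs) lie in B cell follicles and take up apoptotic B cells.

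The CC members lie in a gene cluster on chromosome 11 of the mouse (coordinates are GRCm38). Ccl2 (chr11:82035571-82037453), Ccl7 (chr11:82045712-82047525), Ccl12 (chr11:82101845-82103400) and Ccl8 (chr11:82115185-82116799) are on the plus strand, and Ccl9 (chr11:83572919-83578636) and Ccl6 (chr11:83587882-83593087) are neighbours on the minus strand. Pf4 is on chromosome 5 (chr5:90772435-90773383, plus strand). The 250 bases before the annotated start of 5 members, from RefSeq on GRCm38.p6, are shown, as these genes fell into different patterns of expression. Ccl8 and Ccl12 were high in sinus macrophages, Ccl6 and Ccl9 were spread over monocytes and dendritic cells, and Pf4 was found mostly in macrophages. Ccl2 and Ccl7 were not matched in the promoter table. Capitals mark matches to the TATA box, PU.1 or NF-kB motifs described after the sequences.
Ccl8, chr11:82114935-82115184, plus strand: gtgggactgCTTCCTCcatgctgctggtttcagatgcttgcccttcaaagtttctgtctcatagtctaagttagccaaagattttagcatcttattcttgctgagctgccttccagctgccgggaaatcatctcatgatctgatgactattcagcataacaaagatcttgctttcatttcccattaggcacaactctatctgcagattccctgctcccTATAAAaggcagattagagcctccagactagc
Ccl12, chr11:82101595-82101844, plus strand: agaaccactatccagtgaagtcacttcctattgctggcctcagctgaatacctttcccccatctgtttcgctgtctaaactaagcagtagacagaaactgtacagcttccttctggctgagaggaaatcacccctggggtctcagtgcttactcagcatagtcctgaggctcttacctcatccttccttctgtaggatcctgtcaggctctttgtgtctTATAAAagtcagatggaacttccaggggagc
Ccl9, chr11:83578637-83578886, minus strand: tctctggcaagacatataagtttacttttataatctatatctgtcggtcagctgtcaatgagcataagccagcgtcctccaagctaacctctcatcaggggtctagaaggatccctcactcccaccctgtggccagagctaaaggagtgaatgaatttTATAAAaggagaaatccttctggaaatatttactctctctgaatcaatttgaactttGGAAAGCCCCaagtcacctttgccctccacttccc
Ccl6, chr11:83593088-83593337, minus strand: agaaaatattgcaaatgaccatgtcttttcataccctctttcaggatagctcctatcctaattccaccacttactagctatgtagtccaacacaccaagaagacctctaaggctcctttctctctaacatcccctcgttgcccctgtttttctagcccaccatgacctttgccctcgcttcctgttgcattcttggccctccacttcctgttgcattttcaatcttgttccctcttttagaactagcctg
Pf4, chr5:90772185-90772434, plus strand: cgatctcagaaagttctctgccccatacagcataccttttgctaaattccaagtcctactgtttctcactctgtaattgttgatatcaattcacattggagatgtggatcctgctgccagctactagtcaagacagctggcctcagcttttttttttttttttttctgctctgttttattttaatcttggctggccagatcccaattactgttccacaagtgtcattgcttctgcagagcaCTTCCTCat

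Ccl8 and Ccl12 had a TATAAA, 32 to 27 and 31 to 26 bases before the start, and Ccl9 had one 92 to 87 bases before it. TATAAA was searched on the gene's strand only and is in 7.59% of 32851 promoter windows of this length, and the other motifs were searched on both strands. GAGGAAG, a PU.1 core, was found on the opposite strand in Ccl8 (241 to 235 bases before the start) and in Pf4 (9 to 3), and is in 10.6% of all windows. Of the 5 windows that of Ccl9 alone held an NF-kB motif, on the opposite strand 35 to 26 bases before the start, against 7.25% of all windows, and the AP-1 core TGANTCA, which reads alike on both strands there, 53 to 47 bases before it, against 6.75%. The interferon-stimulated response element (ISRE), TTCNNNGAA (STAT factors), AGATAA (factors of the GATA family) and TGCTGAC (MAF) were in none of the 5 windows and in 2.98%, 7.02%, 9.99% and 3.81% of all windows. A match is a run of letters and not a shown binding site.

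After 1242 barcodes whose sequence occurred in both captures, barcodes without a clear hashtag and cells with over 25% mitochondrial UMIs were left out, 12139 cells remained, 2828 and 537 from the unimmunized mice and 4052 and 4722 from the immunized mice. Median depth was 5877, 6280, 9674 and 12727.5 UMIs per cell in the same order, so cells of the immunized mice, above all of immunized mouse 2, held more UMIs. The cells of all mice were pooled before capture, and the part of cell make-up in this was not tested. Cells were gated into 15 types by having UMIs of at least 3 of 6 marker genes and more of them than of any other type. The C1q list was left out of this count for the TBM-like, medullary sinus and inflammatory macrophage gates. A cell that met one of these gates took its name even with more C1q markers. The C1q macrophage gate thus holds only cells that none of these gates took. By these rules 8335 cells (68.66%) were gated. No member was a marker. Levels are given as CPM, the UMIs of a gene divided by the UMIs of all genes in the cells of that type in that mouse and scaled to one common library total, so more cells expressing a gene and more RNA per expressing cell cannot be told apart in them. The names stand for cells that are like a type by these markers only.

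The macrophage gates held 348 medullary sinus macrophage-like (MSM-like) cells, 2347 C1q macrophage-like cells and 174 TBM-like cells. For every gate, 2 to 6 of its own markers were among its 10 leading genes. Lyve1, one of the MSM markers, had a UMI in 25 cells of all and hardly took part in that gate. MSM-like cells were shallow, with a median of 1933 UMIs against 12516 in C1q macrophage-like and 14128 in TBM-like cells, and numbered 228, 16, 94 and 10 in unimmunized mice 1 and 2 and immunized mice 1 and 2. TBM-like cells numbered 6 in each unimmunized mouse and 51 and 111 in the immunized mice, and their markers (Mertk, Itga9, C3ar1, Stab1, Ms4a7 and Tmem37) had been chosen by the study on these cells. An earlier clustering of the same cells had also listed Pf4, Ccl12 and Ccl7 among the leading genes of its TBM-like cluster. The levels of these members in TBM-like cells are therefore not independent evidence.

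Ccl8 was by far highest in MSM-like cells. Its level there was 4213 CPM in unimmunized mouse 1, 5727 in unimmunized mouse 2, 8447 in immunized mouse 1 and 8018 in immunized mouse 2. C1q macrophage-like cells had 607, 363, 231 and 13.9 CPM in the same mice, and TBM-like cells had 382 and 265 CPM in immunized mice 1 and 2, above C1q macrophage-like cells of the same mouse. Every MSM-like library lay above every library of these other macrophages. Ccl8 was detected in 86.8% of MSM-like cells of unimmunized mouse 1 (exact binomial 95% interval 81.75 to 90.94), 81.3% in unimmunized mouse 2 (54.35 to 95.95), 92.6% in immunized mouse 1 (85.26 to 96.95) and 100% of the 10 cells of immunized mouse 2 (from 69.15). After thinning each cell to 1000 UMIs the shares were 75.5%, 68.8%, 85.1% and 80.0%. In B cells, which are not known as a source of CCL8, 5.41%, 0%, 5.81% and 5.56% of cells had a UMI at a median depth of 4474 UMIs, with 27.6, 0, 20.2 and 7.65 CPM. In monocytes and dendritic cells the level was between 0 and 23.5 CPM and thus within the range of B cells, and it is read here as background.

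**Figure D1:**
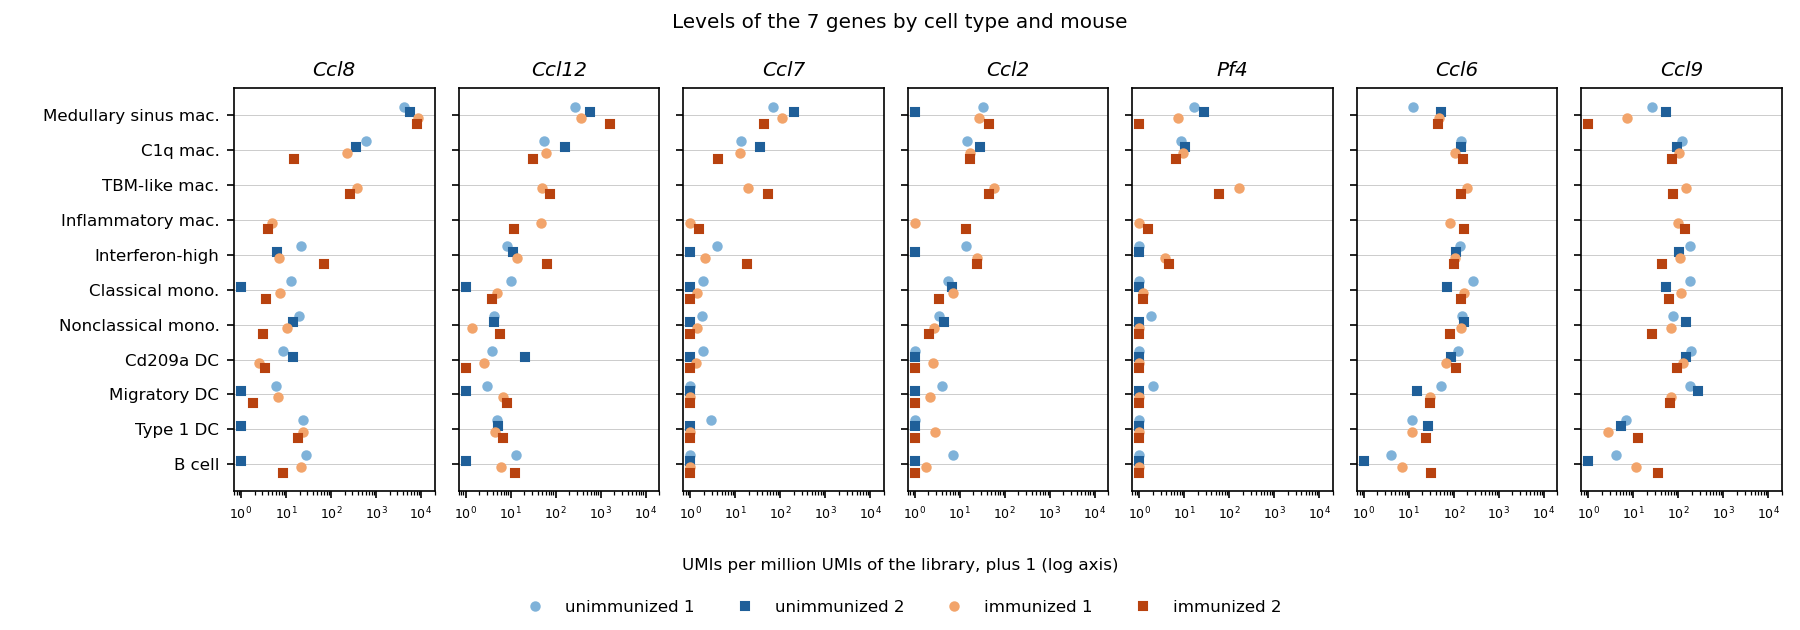
Level of the 7 members in 11 of the gated cell types (rows), as CPM plus 1 on a log axis, with one point per mouse and colours and symbols for the mice; libraries under 10 cells, among them TBM-like cells of the unimmunized mice, are not drawn, and a level of 0 lies at 1. Ccl8 is highest in MSM-like cells at 4213 to 8447 CPM, Pf4 in TBM-like cells at 162 and 59.5 CPM in the 2 immunized libraries, and Ccl6 and Ccl9 are spread over monocytes, dendritic cells and C1q macrophage-like cells.

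Ccl12 and Ccl7 were also high in MSM-like cells, at lower levels than Ccl8. Ccl12 was at 265, 596, 360 and 1621 CPM in MSM-like cells of unimmunized mice 1 and 2 and immunized mice 1 and 2, and at 54.7, 163, 60.5 and 29.9 CPM in C1q macrophage-like cells. A single cell gave 30 of the 38 UMIs behind the value of 1621, and without it the level was 381 CPM. A single C1q macrophage-like cell of unimmunized mouse 2 held 43 of 71 Ccl12 UMIs, and without it the level was 66.0 CPM. Ccl7 was at 69.0, 207, 108 and 42.7 CPM in MSM-like cells and at 12.8, 34.4, 11.6 and 3.08 CPM in C1q macrophage-like cells, the lowest MSM-like value resting on 1 UMI. The TBM-like libraries of immunized mice 1 and 2 had 49.96 and 73.3 CPM of Ccl12 and 18.7 and 52.9 CPM of Ccl7. For Ccl7 in immunized mouse 2 the TBM-like library thus lay above MSM-like cells, but 1 cell held 55 of its Ccl7 UMIs. Without that cell its level was 20.1 CPM, below the 42.7 CPM of MSM-like cells, which rest on 1 UMI. No B cell of any mouse had a Ccl7 UMI, which in the 155 B cells of immunized mouse 1 allows a share of up to 1.94%.

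Ccl2, the best known ligand of CCR2, was low in every type. It was at 32.6, 0, 25.5 and 42.7 CPM in MSM-like cells, at 13.5, 27.5, 15.7 and 16.1 CPM in C1q macrophage-like cells, and at 13.1, 0, 23.3 and 22.9 CPM in interferon-high cells. These 3 types headed the order of Ccl2 levels with means over the 4 mice of 25.2 ± 18.2, 18.2 ± 6.32 and 14.8 ± 10.97 CPM (SD, n = 4 mice), and did not differ beyond this spread. In the 2 immunized mice TBM-like cells had 57.8 and 43.3 CPM, above the other types with at least 10 cells, although the 42.7 CPM of MSM-like cells in immunized mouse 2 rest on 1 UMI. Without the TBM-like cell with most Ccl2 UMIs in each mouse, these TBM-like levels were 33.7 and 29.85 CPM, the latter below that MSM-like value. In inflammatory macrophage-like cells of immunized mouse 2 the level was 13.1 CPM, of which 1 cell gave 45 of 73 UMIs, and it was 5.06 CPM without that cell.

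Pf4 was the member with the narrowest distribution. TBM-like cells had 162 and 59.5 CPM in the immunized mice, with a UMI in 37.3% (exact binomial 95% interval 24.13 to 51.92) and 25.2% (17.46 to 34.35) of cells, and 505 and 72.8 CPM in the 6 cells of each unimmunized mouse. In unimmunized mouse 1 a single cell gave 35 of the Pf4 UMIs of its TBM-like cells, and without it the level was 93.1 CPM. C1q macrophage-like cells had 7.50, 9.18, 8.49 and 5.44 CPM with 2.35%, 3.64%, 2.16% and 2.44% positive cells, and MSM-like cells had 15.3, 25.9, 6.37 and 0 CPM from 11 UMIs in all. Without the C1q macrophage-like cell with most Pf4 UMIs, which carried 3 TBM markers, the 8.49 CPM of immunized mouse 1 fell to 3.62 CPM. No B cell had a Pf4 UMI, and the other types were between 0 and 3.53 CPM. TBM-like cells were 1.26% and 2.35% of the cells of the immunized mice and held 57.5% and 42.9% of their Pf4 UMIs. C1q macrophage-like cells were 15.97% and 30.3% of these cells and held 29.8% and 48.9%, in immunized mouse 2 more than TBM-like cells. This order depends on the gate. C1q-expressing macrophages with at least 3 TBM markers numbered 63 and 181, more than the 51 and 111 TBM-like cells, so some lay in the C1q gate. They held 148 of 181 and 128 of 231 Pf4 UMIs of these mice. In unimmunized mouse 1 TBM-like cells held 59.4% and C1q macrophage-like cells 14.5%, and in unimmunized mouse 2 each held 44.4%. Platelets carry Pf4 RNA, and their markers were at or near 0: over all 12139 cells Ppbp, Gp9 and Gp5 had 1 UMI each, Gp1ba and Treml1 2 each, Gp1bb 10, and Tubb1 0. Itga2b and Gp6 of the same list had 75 and 635 UMIs. The summed list of 10 was at 0, 0, 3.12 and 3.60 CPM in TBM-like cells and at 2.52 to 6.89 CPM in C1q macrophage-like cells.

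Ccl6 and Ccl9 had another order. Ccl6 was at 272, 70.3, 168 and 143 CPM in classical monocytes, at 154, 170, 144 and 80.1 CPM in nonclassical monocytes, at 142, 140, 103 and 162 CPM in C1q macrophage-like cells, at 138, 109, 106 and 98.4 CPM in interferon-high cells and at 123, 87.3, 67.2 and 112 CPM in Cd209a dendritic cells. These 5 types overlapped one another and did not differ beyond the spread between mice. Ccl9 was at 176, 271, 66.0 and 64.4 CPM in migratory dendritic cells. Cd209a dendritic cells had 185, 148, 128 and 93.5 CPM of Ccl9, and classical monocytes 184, 52.7, 116 and 62.2 CPM. Inflammatory macrophage-like cells were 7.41% of the cells of immunized mouse 2 and held 11.3% of its Ccl6 and 19.1% of its Ccl9 UMIs. Without the cell with most UMIs of each gene, they had 162 CPM of Ccl6 and 134 CPM of Ccl9 there. In immunized mouse 1 their Ccl9 level without that cell was 55.0 CPM. In MSM-like cells Ccl6 was at 11.5, 51.8, 44.6 and 42.7 CPM and Ccl9 at 24.9, 51.8, 6.37 and 0 CPM. Type 1 dendritic cells and lymphocytes had at most 43.2 CPM of Ccl6 and 34.4 CPM of Ccl9 in any library. The few neutrophils, 12 cells in all, had between 0 and 1185 CPM of Ccl6 and are not interpreted.

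Sinus macrophages were then compared with the other myeloid types, over all 4 mice and with each type given equal weight. The levels had been seen before this comparison was added, so its p-values describe a difference that was already visible. By edgeR's quasi-likelihood test Ccl8 was higher in MSM-like cells by 8.22 ± 0.28 on the log2 scale (SE, adjusted p = 1.07e-25), Ccl7 by 6.38 ± 0.57 (adjusted p = 1.659e-10) and Ccl12 by 5.55 ± 0.32 (adjusted p = 9.531e-18). Pf4 was higher by 4.40 ± 0.95 (adjusted p = 0.000712) and Ccl2 by 3.12 ± 0.61 (adjusted p = 0.000108). Ccl6 and Ccl9 were lower, with log2 fold changes of -1.89 ± 0.46 (adjusted p = 0.00127) and -2.67 ± 0.63 (adjusted p = 0.000857). Thus 5 members were higher and 2 lower, where 12.9% of the 10202 genes tested were higher and 19.7% lower, and the median log2 fold change was 4.40 for the 7 members and -0.28 for all genes. The fitted values of Ccl7 and Pf4 are set against many libraries at 0 and depend on the prior count, so they are not bounds. In capture 1 alone, and also without unimmunized mouse 1, 3 members passed (Ccl7, Ccl12 and Ccl8), without immunized mouse 1 there were 4 (these and Ccl6), and in capture 2 alone 5 (these, Ccl6 and Ccl2). The calls of Ccl2, Pf4, Ccl9 and Ccl6 thus depended on which libraries entered. How many of all genes passed in these smaller fits is not given here, so the loss of calls cannot be read as particular to the members. Without unimmunized mouse 1 the fitted value of Ccl2 turned to -0.31 with a standard error of 808, which is no usable estimate.

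Among the MSM-like cells with at least 2000 UMIs, Ccl8 was at 3904, 3246, 7632 and 9226 CPM, from 88, 8, 67 and 5 cells. A refit with these cells kept only the MSM-like libraries of unimmunized mouse 1 and immunized mouse 1. The others were under 10 cells, so calls from that refit are not counted here. The stromal and endothelial list of 8 genes, which shares Lyve1 with the gate, summed to 70.9, 25.9, 38.2 and 213 CPM in MSM-like cells. It summed to 7.08 to 32.3 CPM in C1q macrophage-like cells and 12.01 to 36.9 CPM in TBM-like cells. In MSM-like cells Col1a1 was at 0 and Col3a1 at 1.11 CPM. Cdh5, Pecam1 and Lyve1 were at 17.8, 24.5 and 12.25 CPM there, against 0.38, 7.96 and 0.14 CPM in C1q macrophage-like cells. Siglech, listed as a marker of plasmacytoid dendritic cells, was at 216 CPM in MSM-like cells and 4.64 CPM in C1q macrophage-like cells. Of the same list, Bst2 was at 726 and 344 CPM, Tcf4 at 131 and 47.4 CPM and Cox6a2 at 18.9 and 0.52 CPM. Ccr9 was at 5.57 and 5.68 CPM, and Klk1 at 1.11 and 0 CPM. The list summed to 1112, 1114, 1111 and 639.8 CPM in the MSM-like libraries. In the C1q macrophage-like libraries the sum was 382.9 to 469.5 CPM. The part of these in the results was not tested.

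C1q-expressing macrophages, that is TBM-like and C1q macrophage-like cells, were next compared with the 8 other myeloid types in the immunized mice, which include MSM-like cells. TBM-like and C1q macrophage-like cells had equal weight, although they numbered 51 and 111 against 647 and 1432 cells. TBM-like levels of Pf4, Ccl12 and Ccl7 thus enter strongly and are not independent evidence. All 7 members were higher in C1q-expressing macrophages by edgeR, where 7.20% of all 10202 genes tested were higher. Pf4 was higher by 6.44 ± 0.39 on the log2 scale (adjusted p = 1.929e-12), Ccl7 by 4.47 ± 0.58 (adjusted p = 1.162e-06) and Ccl8 by 3.63 ± 0.37 (adjusted p = 1.194e-09). Ccl2 was higher by 2.80 ± 0.32 (adjusted p = 3.733e-08) and Ccl12 by 2.39 ± 0.32 (adjusted p = 4.878e-07). The smallest differences were those of Ccl9, 1.22 ± 0.29 (adjusted p = 0.00362), and Ccl6, 1.13 ± 0.22 (adjusted p = 0.000304). Equal weights make this a contrast with the average type. When all other myeloid cells of a mouse were summed to one library, an alternative added after the data had been seen, 2 members passed, Pf4 and Ccl2, and Ccl8 was at 1.27 (adjusted p = 0.71), Ccl7 at 2.81 (adjusted p = 0.060), Ccl12 at 2.06 (adjusted p = 0.058), Ccl6 at 0.21 and Ccl9 at 0.11. How many of the 11062 genes tested in this summed fit passed is not given here, so the fall cannot be read as particular to the members. With DESeq2, 5 members passed and Ccl6 and Ccl9 did not, where 390 of all 10202 genes were higher.

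**Figure D2:**
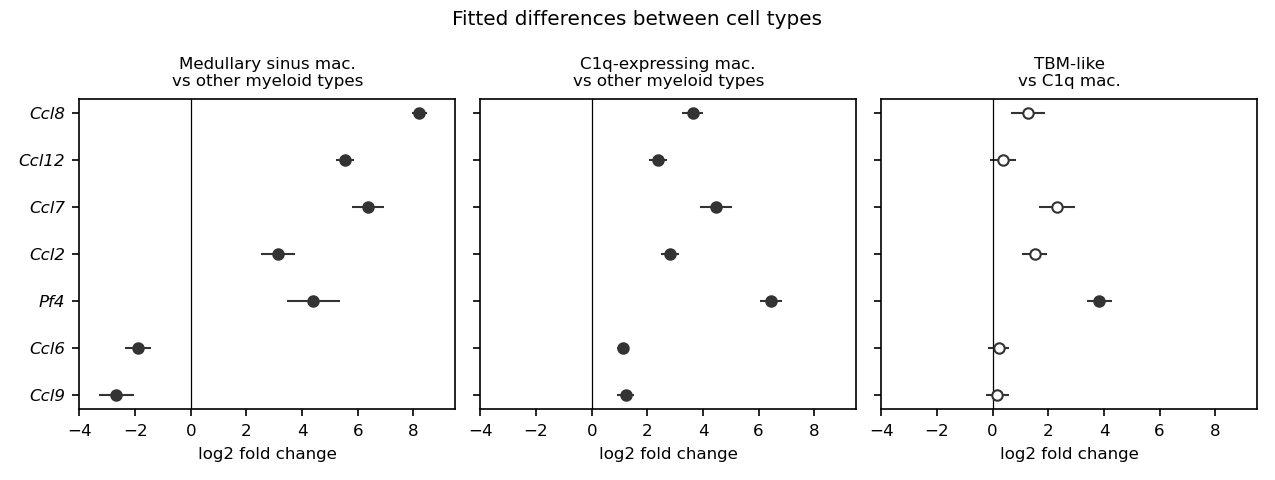
Log2 fold change of each member (points) with its standard error (bars) by edgeR in the comparisons of MSM-like cells with other myeloid types, C1q-expressing macrophages with other myeloid types, and TBM-like with C1q macrophage-like cells; filled points have an adjusted p under 0.05. In MSM-like cells Ccl8 stands at 8.22 and Ccl9 at -2.67, and in TBM-like cells the one filled point is Pf4 at 3.83. The MSM-like levels had been seen before that comparison, and Pf4 had been listed for a TBM-like cluster of these cells.

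Within C1q-expressing macrophages of the immunized mice, TBM-like cells were compared with C1q macrophage-like cells. Pf4 was higher in TBM-like cells by 3.83 ± 0.45 on the log2 scale (edgeR, adjusted p = 4.321e-05), where 18 of 10202 genes (0.176%) were higher. The TBM markers had been chosen on these cells, and Pf4, Ccl12 and Ccl7 had been listed for a TBM-like cluster of them. The p-values of these members here are therefore not independent evidence. None of the other 6 members passed, with log2 fold changes of 2.32 ± 0.65 for Ccl7 (adjusted p = 0.178), 1.51 ± 0.45 for Ccl2 (adjusted p = 0.238) and 1.26 ± 0.61 for Ccl8 (adjusted p = 0.783). Ccl12 (0.39, 95% interval -0.54 to 1.31), Ccl9 (0.17, -0.61 to 0.95) and Ccl6 (0.21, -0.50 to 0.93) had intervals that include 0. Both libraries of a mouse come from the same animal, and with the mouse as a block Ccl2 (1.498, edgeR adjusted p = 0.0102) and Ccl7 (2.40, adjusted p = 0.0278) passed too. How many of all genes passed in that fit is not given here. One TBM-like cell of immunized mouse 2 held 55 of that library's 88 Ccl7 UMIs, together with 23 Ccl2, 18 Ccl8 and 20 Ccl12 UMIs, and without it Ccl7 fell from 52.9 to 20.1 CPM. Without immunized mouse 1, which leaves 1 immunized mouse, Ccl7 was at 4.04 and Ccl8 at 4.22.

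Pf4 was graded by the TBM markers that a cell carried. In C1q-expressing macrophages of immunized mouse 1, 0.55% of cells with none of the 6 TBM markers had a Pf4 UMI, 2.39% with 1, 3.23% with 2 and 38.1% with at least 3. In immunized mouse 2 the shares were 0.53%, 2.33%, 4.42% and 22.7%. In unimmunized mouse 1 they were 0.70%, 3.77%, 13.3% and 37.5%, the last from 3 of 8 cells, and in unimmunized mouse 2 they were 0%, 0%, 33.3% and 33.3%, the last 2 from 2 of 6 cells each. The rise thus lay mainly at 3 markers in the immunized mice. As these markers had been chosen on the same cells, the rise is not independent evidence. For Ccl2 the shares were 4.12%, 7.18%, 14.5% and 23.8% in immunized mouse 1 and 4.79%, 8.61%, 11.6% and 17.7% in immunized mouse 2. A deeper cell shows more markers and more members. With each cell thinned to 1000 UMIs, the Pf4 shares at 0, 1, 2 and at least 3 markers were 0.55%, 0%, 1.61% and 15.9% in immunized mouse 1 and 0%, 0.70%, 1.66% and 3.87% in immunized mouse 2, still highest at 3 or more. Thinned Ccl2 shares were 0.82%, 2.39%, 1.61% and 3.17% in immunized mouse 1, without a steady rise, and 0.80%, 1.63%, 2.21% and 4.97% in immunized mouse 2.

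**Figure D3:**
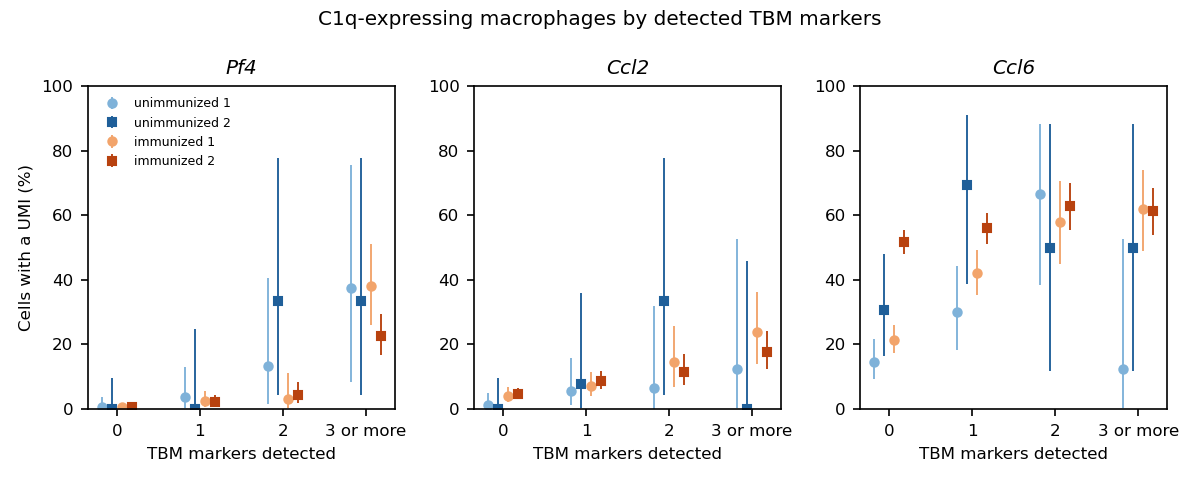
Percent of C1q-expressing macrophages with a UMI of Pf4, Ccl2 or Ccl6 by the number of TBM markers detected in the cell, before thinning, with one point per mouse and exact binomial 95% intervals as bars. Pf4 goes from 0.55% and 0.53% at no marker to 38.1% and 22.7% at 3 or more in the 2 immunized mice.

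The MSM markers split the C1q macrophage-like cells in the same way for Ccl8. With none of the 6 MSM markers detected, Ccl8 was at 14.9, 11.8, 104 and 10.9 CPM in unimmunized mice 1 and 2 and immunized mice 1 and 2. With at least 1 it was at 1210, 1593, 829 and 89.6 CPM, higher in 4 of 4 mice. Such cells numbered 126 of 213, 20 of 55, 158 of 647 and 64 of 1432, so they were a larger part of the C1q gate in the unimmunized mice. Ccl12 was at 4.46, 148, 53.1 and 28.5 CPM without and 106, 217, 95.6 and 64.3 CPM with an MSM marker, also higher in 4 of 4 mice, the value of 148 coming mostly from 1 cell. Ccl6 went the other way, with 177, 150, 113 and 164 CPM without and 106, 103, 57.7 and 119 CPM with an MSM marker. Ccl9 did the same, with 177, 100.3, 113 and 72.8 CPM without and 56.0, 62.1, 51.4 and 42.9 CPM with one.

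**Figure D4:**
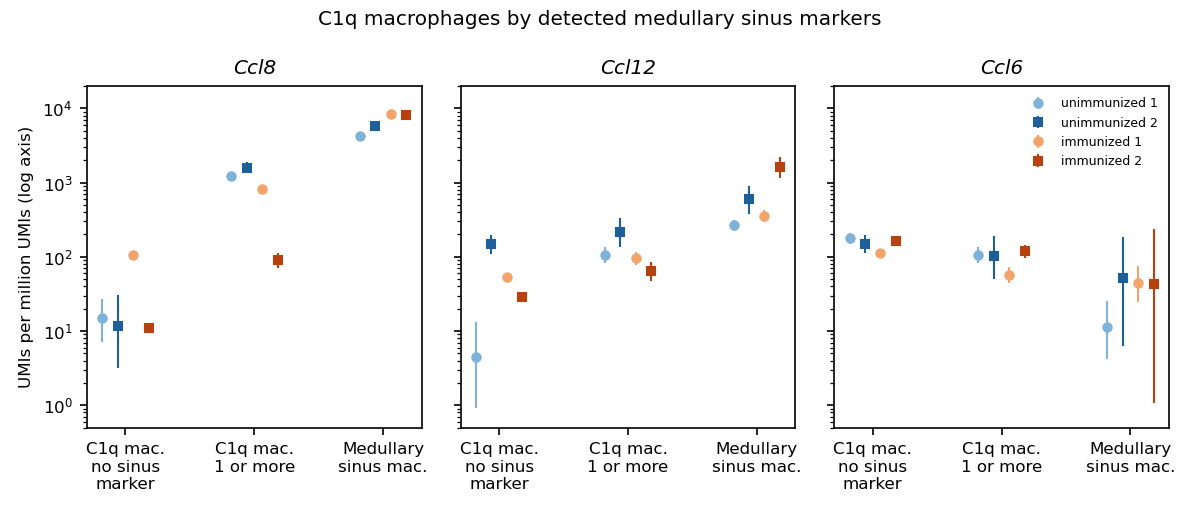
Level of Ccl8, Ccl12 and Ccl6 (CPM, log axis) in C1q macrophage-like cells with none and with at least 1 of the 6 MSM markers detected and in MSM-like cells, with one point per mouse and exact Poisson 95% intervals as bars. Ccl8 is higher in C1q macrophage-like cells with a marker in all 4 mice, 1210 against 14.9 CPM in unimmunized mouse 1, whereas Ccl6 is lower in all 4.

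Surface antibodies, which played no part in the gates, also differed in these cells. Among C1q-expressing macrophages, the centred log ratio of the CD68 antibody was higher in cells with a Ccl8 UMI than in cells without by 1.01, 1.36, 0.40 and 0.16 in unimmunized mice 1 and 2 and immunized mice 1 and 2. For Ly-6c the differences were -0.75, -1.49, -0.55 and -0.38, and for CD11c they were -1.05, -0.65, -0.51 and -0.10, the last turning to 0.050 on the scale of log2(counts + 1). F4/80 and CD169 were higher with Ccl8 in all 4 mice, by 0.25 to 0.37 and by 0.12 to 0.40. For Ly-6g the differences were 0.31, 0.13, -0.02 and -0.07. In unimmunized mouse 1 this was larger than for CD169 (0.12). On the scale of log2(counts + 1) Ly-6g differed by 0.82, 0.32, 0.21 and 0.08. The ratio is centred on the mean of all 6 antibodies, so a lower value of some raises the others. For CD68 and CD169, cells with Ccl9 went the opposite way in unimmunized mice 1 and 2 and immunized mouse 1, with CD68 differences of -0.68, -0.84 and -0.22 and CD169 differences of -0.81, -0.64 and -0.55, and were close to 0 in immunized mouse 2, at 0.079 and 0.042. F4/80 was higher with Ccl9 in the same 3 mice (0.25, 0.47 and 0.43), as it was with Ccl8, and -0.040 in immunized mouse 2. These are descriptions without a test. Cells with Ccl8 had fewer UMIs in 3 mice, with medians of 1899, 2341 and 5548.5 against 7831, 10048.5 and 10693.5, and 14761 against 14332 in immunized mouse 2. Cells with Ccl9 had more UMIs in the same 3 mice, with medians of 9637, 10519 and 11705 against 3705, 5604 and 8083. In immunized mouse 2 these were 14557 against 14246. MSM-like cells had positive CD68 values in every mouse (0.40, 0.61, 0.74 and 0.70), and C1q macrophage-like cells had negative ones (-0.19, -0.49, -0.75 and -1.09).

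**Figure D5:**
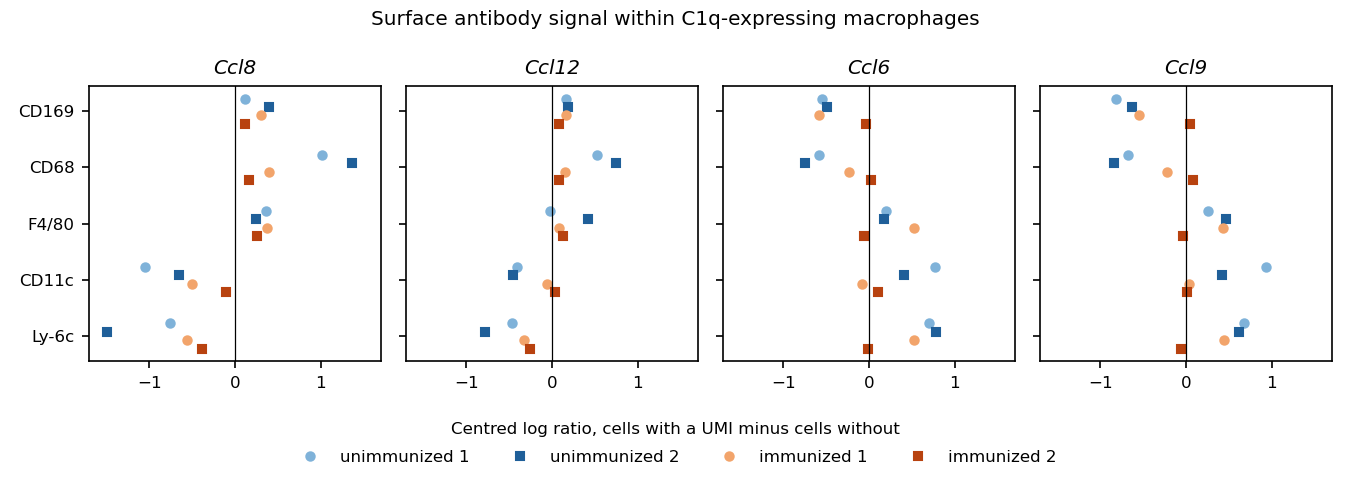
Difference in the centred log ratio of 5 surface antibodies (rows) between C1q-expressing macrophages with and without a UMI of Ccl8, Ccl12, Ccl6 or Ccl9, with one point per mouse. Cells with Ccl8 lie to the right for CD68 (0.16 to 1.36) and to the left for Ly-6c (-1.49 to -0.38) in all 4 mice. Ly-6g is not drawn.

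Immunization was compared within each of 8 myeloid types that had libraries from all 4 mice. None of the 56 tests passed by edgeR. At an unadjusted p under 0.05 there were 6, the smallest adjusted p was 0.0969, and with DESeq2 0 passed and 2 were under 0.05 unadjusted. Over all 10202 genes, 4.35% were called in C1q macrophage-like cells, 1.67% in interferon-high cells, 1.45% in classical monocytes, 0.235% in migratory dendritic cells, 0.0588% in Cd209a dendritic cells and 0% in MSM-like cells, nonclassical monocytes and type 1 dendritic cells. With 2 mice per condition, missing the threshold does not show that a member was unaffected.

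The smallest adjusted p belonged to Ccl8 in C1q macrophage-like cells, with a log2 fold change of -1.79 ± 0.61 (95% interval -2.99 to -0.58, edgeR adjusted p = 0.0969). The unimmunized mice had 607 and 363 CPM and the immunized mice 231 and 13.9 CPM, without overlap. The value of immunized mouse 2 set much of this. Restricted to cells with no MSM marker, an alternative added after the data had been seen, the sign turned to 2.22 ± 0.89 (edgeR, adjusted p = 0.228). In these cells the unimmunized mice had 14.9 and 11.8 CPM, from 10 and 4 UMIs, and the immunized mice 104 and 10.9 CPM. Only immunized mouse 1 thus lay above the unimmunized mice, and 1 of its cells held 166 of 548 UMIs. In MSM-like cells themselves Ccl8 was at 4213 and 5727 CPM in unimmunized and 8447 and 8018 CPM in immunized mice (log2 fold change 0.74 ± 0.60, adjusted p = 0.875). Ccl7 and Ccl12 in C1q macrophage-like cells had log2 fold changes of -1.35 ± 0.73 (adjusted p = 0.401) and -0.96 ± 0.48 (adjusted p = 0.335).

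Ccl12 in interferon-high cells was at 7.25 and 10.4 CPM in unimmunized and 12.8 and 63.8 CPM in immunized mice (log2 fold change 2.50 ± 0.86, adjusted p = 0.139). In immunized mouse 2, 1 cell held 113 of 181 UMIs, and the level was 24.2 CPM without it. Ccl2 in the same cells was at 13.1 and 0 CPM against 23.3 and 22.9 CPM (1.44 ± 0.70, adjusted p = 0.337). Ccl8 of these cells in immunized mouse 2 was at 68.1 CPM, of which 1 cell held 191 of 193 UMIs beside 45 Ccl7 UMIs, and it was 0.71 CPM without that cell. Ccl9 was lower in migratory dendritic cells of the immunized mice, 66.0 and 64.4 against 176 and 271 CPM. The log2 fold change of -1.56 ± 0.44 did not pass (edgeR, adjusted p = 0.121). Pf4 in C1q macrophage-like cells had a log2 fold change of -0.01 ± 0.56 (95% interval -1.10 to 1.08).

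The difference between the effect of immunization in C1q macrophage-like cells and that in the other myeloid types was also tested. No member passed, and 0% of the 10202 genes did (0 by edgeR, 230 at an unadjusted p under 0.05). Ccl8 had a difference of -1.49 ± 0.80 on the log2 scale and Ccl12 of -1.25 ± 0.70, both with an adjusted p of 1.0, and Ccl7 and Pf4 could not be estimated because some types had no UMI.

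Summed over all cells of a mouse, Ccl2 was at 5.75 and 4.72 CPM in unimmunized and 9.41 and 11.1 CPM in immunized mice (log2 fold change 1.21 ± 0.22), and Ccl6 at 79.0 and 79.1 against 101.7 and 135 CPM (0.84 ± 0.19). Both had an edgeR adjusted p of 0.107, and 0% of the 13596 genes tested here passed (0 by edgeR, 3894 at an unadjusted p under 0.05). With DESeq2, Ccl2 (adjusted p = 0.0152) and Ccl6 (adjusted p = 0.0119) passed, where 1548 of all 13596 genes did. Ccl8 was at 184 and 115 against 119 and 20.2 CPM (-0.88 ± 0.80, adjusted p = 0.504). In these sums the make-up of the sort moves with immunization. MSM-like cells made up 8.06%, 2.98%, 2.32% and 0.212% of cells in unimmunized mice 1 and 2 and immunized mice 1 and 2, and held 63.0%, 50.3%, 57.4% and 15.1% of all Ccl8 UMIs. Classical monocytes were 3.54% and 3.17% against 20.9% and 16.8% of cells, and held 19.9% and 3.97% against 40.2% and 16.9% of the Ccl6 UMIs. What part of the sums this makes was not tested.

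The receptors of the members were read from a list of 12 genes, 9 of which could be tested. In C1q-expressing macrophages of immunized mice 4 were higher than in the other myeloid types and none lower by edgeR, with a median log2 fold change of 0.67 against 0.08 over all genes. Among these were Ccr1, the receptor of CCL6 and CCL9 (2.78 ± 0.41), the heparan sulphate proteoglycan Sdc4 (1.497 ± 0.26) and Ccr2 (0.59 ± 0.19), which is also a marker of the classical monocyte gate. In MSM-like cells 4 were lower and none higher, among them Sdc4 (-2.07 ± 0.58) and Ccr2 (-1.62 ± 0.27), with a median of -2.07 against -0.28. Between immunized and unimmunized C1q macrophage-like cells Sdc1 was lower (-2.98 ± 0.63, adjusted p = 0.00180).

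Among 15 other chemokines that attract myeloid cells, 6 could be tested. In MSM-like cells Cxcl12, a chemokine of stromal cells, was higher (3.42 ± 0.78) and Ccl5 lower (-2.43 ± 0.55), and in C1q-expressing macrophages none of the 6 passed. Cxcl12 was lower after immunization in C1q macrophage-like cells (-2.82 ± 0.77, adjusted p = 0.0240). Of 13 chemokines that attract lymphocytes and dendritic cells, 10 were tested. Cxcl16 was higher in C1q-expressing macrophages (1.06 ± 0.20) and lower in MSM-like cells (-2.37 ± 0.37), and was higher after immunization in C1q macrophage-like cells (1.36 ± 0.37, adjusted p = 0.0231). Cxcl13, the B cell follicle chemokine, was lower there after immunization (-3.21 ± 0.76, adjusted p = 0.00574). C1q macrophage-like cells with an MSM marker numbered 126 of 213 and 20 of 55 in the unimmunized mice. In the immunized mice they numbered 158 of 647 and 64 of 1432. The part of this in the differences of Cxcl12, Cxcl16, Cxcl13 and Sdc1 within these cells was not tested. Of 25 inducers and signalling genes, 23 were tested. In MSM-like cells Il1a was higher (3.26 ± 0.56) and 9 were lower, among them Ifnar1 (-2.02 ± 0.32), and in C1q-expressing macrophages 5 were higher, among them Fos (1.36 ± 0.30) and Ifngr1 (0.67 ± 0.15), and 1 was lower. In TBM-like against C1q macrophage-like cells no gene of the 4 lists passed.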

How the data were processed

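Reads were processed by the authors with Cell Ranger 4.0.0 on mm10, and antibody and hashtag tags were counted with CITE-seq-count; the deposited matrices hold raw UMI counts per gene and counts per antibody. The treatment of depth when the captures were aggregated was not given in the sources used here. Barcodes were joined by sequence, so the 621 sequences in both captures were left out, as were 1238 barcodes without hashtag counts. A mouse was assigned where 1 hashtag had at least 10 counts and 80% of a cell's hashtag counts. Doublets within 1 mouse were not removed. UMI counts were summed per mouse and gated type (at least 10 cells), giving 52 libraries of 23446 to 20763408 UMIs, and fitted together with edgeR 4.0.16 in R 4.3.3 (quasi-likelihood, TMM, filterByExpr, Benjamini-Hochberg at 0.05). Of 32287 features, 10202 genes were tested, among them all 7 members. Cells were not the replicates. The units of the fit were the libraries of a mouse and a type, and the main fit had no mouse term. It thus took libraries of the same mouse as independent, with a spread pooled over types. The p-values therefore rest on more units than there were mice. Where 2 mice stand for a condition the spread is poorly known. Alternatives included DESeq2 1.42.0, other hashtag rules (HTODemux of Seurat 5.3.0) and gates (Leiden clusters, scanpy 1.11.5), each capture alone, and each mouse left out.

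The numbers of the mice pair nothing between conditions. Libraries of the same mouse come from 1 animal, and the mouse difference between TBM-like and C1q macrophage-like cells correlated at 0.473 over 4053 genes (a description), so the mouse was also fitted as a block. Intervals and limits of levels and shares cover counting error only. Those of log2 fold changes use the standard error with a normal approximation. That standard error was derived from the edgeR test statistic and reflects the spread between libraries, so interval and test can differ near the threshold. Where no UMI was seen, the upper limit was set at 3 counts. Cells were thinned to 1000 UMIs for shares of cells. Antibody counts were centred log ratios per cell. The members and gene lists were chosen with earlier results of these data known. Besides the members, up to 4 genes per list past the threshold with the largest absolute log2 fold change were eligible for naming in each comparison, and the 3 genes most correlated with each member; some of these are not reported here. Fits were tested on simulated counts.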

Additional observations from a re-analysis of the deposited data

Results flagged for a closer look

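The Ccl8 values of immunized and unimmunized mice differed in opposite directions in C1q macrophage-like and MSM-like cells, and neither difference passed (edgeR, adjusted p = 0.0969 and 0.875). The log2 ratio of mean CPM, immunized over unimmunized, was -1.99 in C1q macrophage-like cells and 0.73 in MSM-like cells, a difference of -2.72, and both mice of each condition lay on the same side in both gates. The difference between these 2 gates was not tested. In C1q macrophage-like cells without MSM markers, Ccl8 lay above both unimmunized mice in immunized mouse 1 (104 CPM). In immunized mouse 2 (10.9 CPM) it lay within the counting intervals of both, 7.13 to 27.4 and 3.21 to 30.2 CPM. The values of the unimmunized mice rest on 10 and 4 UMIs. The fitted value in C1q macrophage-like cells turned to 2.22 without cells carrying MSM markers and to 0.42 with Leiden clusters. Against all other myeloid types together it was -1.49 (edgeR, adjusted p = 1.0). C1q macrophage-like cells with an MSM marker numbered 126 of 213 and 20 of 55 in the unimmunized mice and 158 of 647 and 64 of 1432 in the immunized mice. The MSM-like libraries held 228, 16, 94 and 10 cells.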

How the results depend on the processing

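Of 621 alternative values, 77 of 94 counts of called members stayed within 1.5 times, as did 442 of the single values in direction and side of the threshold, while 28 gained the threshold, 23 lost it, and 23 shares of cells moved by thinning and 5 antibody values by taking log2(counts + 1). In TBM-like against C1q macrophage-like cells 1 member was called, 4 without a filter on low counts and 3 with the mouse as a replicate block. The block changed no other call. Of all genes, 22 of 10202 were called there in the main fit and 151 of 19802 without the filter. Leiden clusters gave no TBM-like cluster and so no value there. C1q-expressing macrophages against other myeloid types went from 7 calls to 2 with the other cells summed, a fit whose count over all genes is not given here. Within types, immunization gave 0 calls, 1 with RLE size factors, 1 without the tenth of cells with most UMIs, 4 without the filter and 0 to 9 with 1 mouse left out, most without immunized mouse 1. Over all cells 0 became 2 with DESeq2 and 2 without the filter. Of all genes, 1548 of 13596 were called there with DESeq2 and 2720 of 20390 without the filter. The interaction went from 0 to 1 without the filter, where 7 of 19802 genes were called. MSM-like cells went from 7 to 3 in capture 1 and to 3 to 7 with 1 mouse left out. Signs turned for Ccl2 in MSM-like cells without unimmunized mouse 1 (-0.31 with a standard error of 808, and up to 3.83 with another mouse left out), for Ccl8 after immunization in C1q macrophage-like cells (0.42 with Leiden clusters, 2.22 without cells carrying MSM markers), for Ccl8 in the interaction (0.23 with Leiden clusters), and for Ccl12 (-0.17) and Ccl2 (-0.037) after immunization in interferon-high cells with Leiden clusters. The cause was not tested. Depth limits what can be said of members under a few CPM, and the small MSM-like libraries limit all comparisons within mice 2 of both conditions.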

Other observations

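The members were seen together in single cells in a pattern that followed their levels. Among C1q-expressing macrophages, 59.8% of the 87 cells with a Ccl7 UMI also had Ccl8, against 12% of the others, and 41.4% had Ccl2, against 6.33%. Of the 190 cells with Ccl2, 48.4% had Ccl12, against 13.5%. Of the 108 cells with Pf4, 43.5% had Ccl12, against 14.9%, and 28.7% had Ccl2, against 6.59%. Ccl6 was found in 77.3% of the 778 cells with Ccl9 and in 32.6% of the others, and this held in each of the 4 mice (75.0%, 79.0%, 64.2% and 83.5% against 8.57%, 26.2%, 20.04% and 42.4%). Ccl6 was found in 25.9% of the 344 cells with Ccl8, against 49.6% of the others, at median depths of 6652.5 and 12970 UMIs. By mouse the shares were 7.06% against 31.3% and 26.7% against 47.8% in unimmunized mice 1 and 2. They were 18.7% against 38.3% in immunized mouse 1 and closer, 49.1% against 55.8%, in immunized mouse 2. Pooled over the mice, the median depths of the other pairs were closer, from 10895 to 14774 UMIs with and 12204 to 12654.5 without. Within mice they could differ more. Cells with Ccl9 had medians of 9637, 10519 and 11705 UMIs in unimmunized mice 1 and 2 and immunized mouse 1, against 3705, 5604 and 8083 without. In immunized mouse 2 the medians were 14557 and 14246. In immunized mice 1 and 2, 33.3% and 25.2% of TBM-like cells, and 8.96% and 9.497% of C1q macrophage-like cells, had UMIs of at least 3 of the 7 members.

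Over 42 libraries with at least 20 cells, which share mice and differ in depth, the Pearson correlation of log2(CPM + 1) is given as a description. Ccl6 and Ccl9 were alike (0.855), as were Ccl7 and Ccl8 (0.876), whereas Ccl8 and Ccl6 were not (-0.01). The genes outside the list most like Ccl8 were Folr2 (0.857), Cox4i2 (0.850) and Cbr2 (0.842). Among those most like Ccl12 were Prxl2b (0.829) and C1qb (0.807), a C1q gate marker. Pf4 was most like Itga9 (0.929), a TBM gate marker, Kcnj10 (0.850) and Pnpla1 (0.845). Ccl2 was most like Pnpla1 (0.774), Sash1 (0.763) and Itm2b (0.753), Ccl7 like, among others, Cndp2 (0.834) and Gm13710 (0.821), Ccl6 like Ifitm2 (0.914), Sirpa (0.908) and Igsf6 (0.908), and Ccl9 like Atrnl1 (0.865), Skint3 (0.859) and Tctex1d2 (0.859).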
